A study of Mus musculus with 6 samples.

Results

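The genes described here encode the enzymes that write and erase methyl and acetyl marks on histone tails. They were taken by name: every protein-coding gene in the deposited table whose symbol begins with Kdm, Kmt, Setd, Hdac, Sirt or Kat, followed by its number, with 1 gene left out. This gave 61 genes of the 54532 in the table, 22046 of which were protein-coding. They comprised 18 lysine demethylases (Kdm), 18 lysine methyltransferases (Kmt and Setd), 8 lysine acetyltransferases (Kat), 10 classical deacetylases (Hdac) and 7 sirtuins (Sirt). A mean of at least 1 FPKM (fragments per kilobase of gene, scaled to the depth of the library) over the 6 libraries was required for testing, and 42 of the 61 passed it, among 8882 genes of any kind.

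The libraries were bulk RNA sequencing of macrophages from C57BL/6J mice, 3 from wild-type (WT) animals (replicates 1 to 3) and 3 from progranulin knockout (PGRN KO) animals (replicates 4 to 6), which lack the secreted growth factor encoded by Grn. Every library, WT included, came from cells plated at 2000000 per well, left overnight and then exposed for 6 hours to *Candida albicans* at 1 fungal cell per macrophage by the labels, where the study's text gives another ratio. The WT titles carry the word control, but no unchallenged cells of either genotype were analysed here, so the comparison is of genotypes within challenge. The labels give peritoneal cavity macrophages as the source, whereas the study's text describes cells grown from bone marrow. By that text the PGRN KO mice were bought from the Jackson Laboratory and the WT mice from Chongqing Medical University. Effects of genotype and of the animals' supplier therefore cannot be told apart here. No label gives the animals' age, says how the Grn allele was made, or says that replicates came from separate animals or cultures, so the p-values below measure the spread between these samples, which may be technical.

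Methyl and acetyl groups on histone lysines help to set which genes a macrophage can transcribe. Acetyltransferases transfer acetyl groups from acetyl-CoA and deacetylases remove them, the sirtuins using NAD as a cosubstrate. SET-domain methyltransferases add methyl groups, and demethylases of the JmjC and LSD1 families take them off. Depending on the residue, methylation accompanies active transcription or silencing. In macrophages Kdm6b is a classic gene of the early response to microbial stimuli, and Hdac3, Setdb2 and Sirt1 have been studied as regulators of inflammatory transcription. Many of these enzymes also act on proteins other than histones, and a transcript level is not a measure of enzyme activity or of any histone mark.

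The deleted gene followed the labels. Grn stood at 323, 337 and 325 FPKM in WT replicates 1 to 3 and at 0.0166, 0 and 0.0167 FPKM for PGRN KO replicates 4 to 6, that is 1, 0 and 1 fragment. The libraries held between 15996786 and 17551619 fragments assigned to genes. PGRN KO replicate 6 stood apart. Its values, relative to the mean of the libraries, fell with gene length (Spearman's rho = -0.471 across the tested genes), while in the other 5 libraries rho lay between 0.151 and 0.243. That mean includes replicate 6, whose trend pushes rho of the other 5 upward, so their values do not show a length trend of their own. The 61 enzymes drew 0.276% to 0.285% of fragments in WT, 0.260% and 0.265% in PGRN KO replicates 4 and 5, and 0.174% in PGRN KO replicate 6. Results below are given with all libraries, and those of the enzymes that passed and of the lists also without that library. All 8 macrophage markers were detected in every library, with summed levels of 11600 to 12600 FPKM in WT against 10400 to 14400 FPKM in PGRN KO, but Mertk was higher (0.81 on the log2(FPKM + 1) scale, limma adjusted p = 0.00640) and Csf1r lower (-0.38, adjusted p = 0.0178) in PGRN KO. Of the resident peritoneal markers Timd4, Alox15 and Selp were at or near 0 in both groups. Prg4 was at 12.7 to 16.2 FPKM in WT against 10.4 to 14.3 FPKM in PGRN KO, and Gata6 at 3.78 to 4.26 against 3.84 to 5.07 FPKM. The list's sum was 19.9 to 23.9 FPKM in WT against 19.7 to 24.1 FPKM in PGRN KO. Icam2 was the 1 of the 3 tested that was higher (0.57, limma adjusted p = 0.00914). Markers of other cells differed: the sum of 5 B cell markers was 1.5 to 2.49 FPKM in WT against 6.62 to 8.92 FPKM in PGRN KO (2 of the 2 tested higher), that of 5 markers of recruited monocyte-derived cells was 983 to 1050 FPKM in WT against 506 to 814 FPKM in PGRN KO (3 of the 4 tested lower), and that of 8 neutrophil markers was 60.7 to 66.8 FPKM in WT against 32.4 to 36.2 FPKM in PGRN KO, with Ly6g, Cxcr2 and Elane at 0 (1 of the 2 tested lower). Other sums, at low levels, were 2.32 to 2.73 FPKM in WT against 3.66 to 5.13 FPKM in PGRN KO for T cells, 0.602 to 0.985 against 1.89 to 2.21 FPKM for mast cells, 0.734 to 0.781 against 1.65 to 3.02 FPKM for fibroblasts, 0.429 to 0.626 against 0.726 to 1.25 FPKM for NK cells and 1.84 to 2.27 against 1.1 to 1.44 FPKM for dendritic cells. Most of the neutrophil sum was S100a8, at 48.3 to 52.8 FPKM in WT against 21.2 to 25.6 FPKM in PGRN KO. S100a9, Mpo and Camp were near 0 in both groups. The recruited sum was mostly Cd74 and H2-Ab1, and Ccr2 was low in both groups. Not every member followed its list's sum: for example, Kit of the mast cell list and Zbtb46 of the dendritic cell list went the other way. In the NK cell list Gzma was at 0.269 to 0.297 FPKM in WT against 0.517 to 0.920 FPKM in PGRN KO. Ncr1 and Klrb1c of that list did not rise, and were at most 0.0878 FPKM in any library. The part of these cell types in the enzyme levels was not tested. In bulk samples, fewer cells of a type and less RNA per cell cannot be told apart.

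Transcripts of 12 enzymes differed between genotypes, 9 lower and 3 higher in PGRN KO (limma, Benjamini-Hochberg adjusted p under 0.05 over all 8882 genes). The 9 lower ones were the demethylases Kdm6b, Kdm3a, Kdm2a, Kdm5b and Kdm4b, the methyltransferases Kmt5a and Setd1a, and the sirtuins Sirt1 and Sirt2. The 3 higher ones were the acetyltransferase Kat2b and the methyltransferases Setdb2 and Setd6, of which Setd6 reached the filter only through its PGRN KO values. The 12 were 28.6% of the 42 tested enzymes, against 24.2% of all genes tested. By direction, 21.4% of the enzymes fell, against 13.8% of all genes, and 7.14% rose, against 10.4%. At an unadjusted p under 0.05 there were 17 enzymes and 3469 genes in all. The median difference, PGRN KO minus WT on the log2(FPKM + 1) scale, was -0.17 over the enzymes and -0.03 over all genes, and 28 of the 42 enzymes had a difference below 0. In 23 enzymes (54.8%) the WT and PGRN KO values did not overlap, against 48.8% of all genes, and these 23 included all 12 that passed the test. Neither share stood far from the background of all genes. The 23 include Setd6 and Hdac7, which both reached the filter only through their PGRN KO values. When each library was rescaled to the same sum (the TPM scale), 4 enzymes were higher and 2 lower, in place of 3 and 9, where 10.4% and 6.85% of all genes were called.

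**Figure D1:**
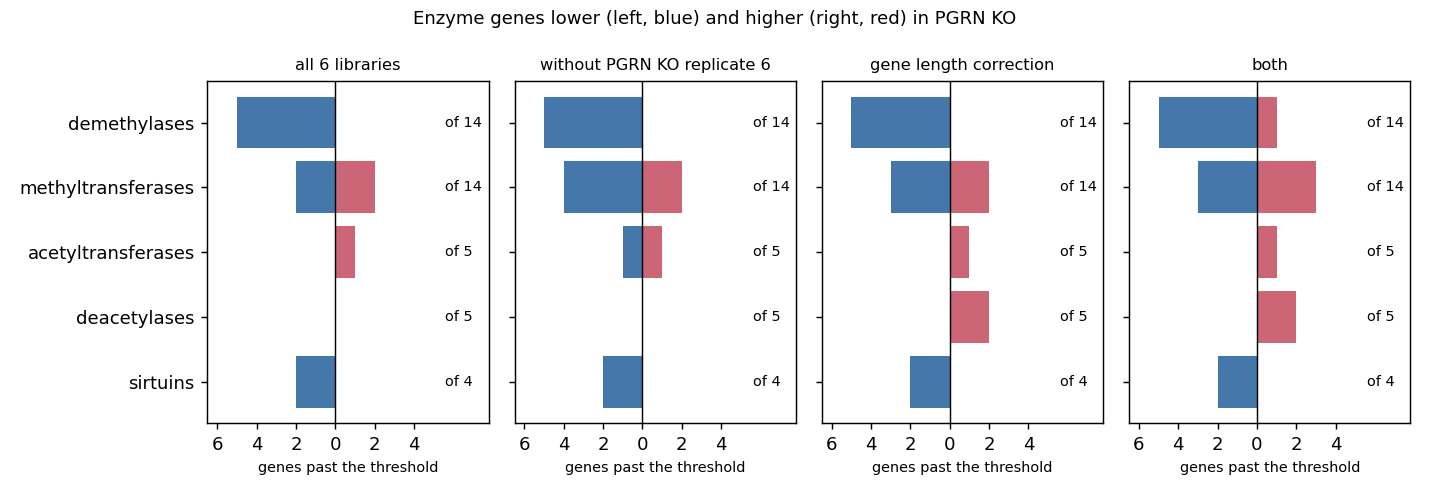
Number of tested enzymes of each class that passed the limma threshold, lower in PGRN KO to the left of 0 (blue) and higher to the right (red), with all 6 libraries, without PGRN KO replicate 6, after correction for gene length, and with both changes; the count beside each bar is the number tested. The 5 lower demethylases and 2 lower sirtuins appear in all 4 panels, and in these panels deacetylases pass only with the length correction, where 2 are higher.

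For the called genes with a RefSeq promoter, the windows of the 4 with the largest differences in either direction are shown. Of these genes Kmt5a and Kdm3a were lower and Kat2b and Setdb2 higher in PGRN KO. Each window runs from 250 bases before to 50 bases after an annotated start, is written 5′ to 3′ on the gene's strand, and is at chr5:124439680-124439979 (plus), chr6:71632868-71633167 (minus), chr17:53566721-53567020 (plus) and chr14:59440831-59441130 (minus) of GRCm38.p6. Capitals mark matches to TGANTCA (the AP-1 motif) and to GAGGAAGT (a PU.1 motif) on either strand.
Kmt5a: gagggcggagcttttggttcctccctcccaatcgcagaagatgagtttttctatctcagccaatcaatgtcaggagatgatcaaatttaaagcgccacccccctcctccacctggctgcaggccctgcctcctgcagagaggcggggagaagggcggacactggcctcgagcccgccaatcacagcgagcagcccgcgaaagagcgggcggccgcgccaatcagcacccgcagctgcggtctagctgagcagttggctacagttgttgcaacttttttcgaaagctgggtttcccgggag
Kdm3a: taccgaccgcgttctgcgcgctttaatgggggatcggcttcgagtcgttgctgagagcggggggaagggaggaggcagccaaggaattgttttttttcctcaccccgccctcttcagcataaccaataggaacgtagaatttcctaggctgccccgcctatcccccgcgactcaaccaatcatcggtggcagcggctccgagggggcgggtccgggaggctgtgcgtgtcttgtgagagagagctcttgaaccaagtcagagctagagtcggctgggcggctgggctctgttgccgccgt
Kat2b: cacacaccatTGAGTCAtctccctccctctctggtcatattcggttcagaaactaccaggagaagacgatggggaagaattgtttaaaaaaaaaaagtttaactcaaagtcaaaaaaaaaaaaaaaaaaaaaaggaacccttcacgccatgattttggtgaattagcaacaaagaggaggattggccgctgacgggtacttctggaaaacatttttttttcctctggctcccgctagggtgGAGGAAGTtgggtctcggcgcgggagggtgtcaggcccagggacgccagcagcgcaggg
Setdb2: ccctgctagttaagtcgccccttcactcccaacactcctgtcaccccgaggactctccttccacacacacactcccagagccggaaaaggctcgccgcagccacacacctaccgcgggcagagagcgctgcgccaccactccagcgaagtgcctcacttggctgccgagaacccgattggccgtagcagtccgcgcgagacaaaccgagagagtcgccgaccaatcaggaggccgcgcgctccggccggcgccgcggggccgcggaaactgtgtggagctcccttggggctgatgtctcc

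The windows of Kmt5a, Kdm3a and Setdb2 were rich in CpG, with 18, 24 and 29 CpG pairs in 300 bases, while that of Kat2b held 11. Over the 47 windows of tested enzymes the median was 21 CpG pairs, against 7 over 32851 windows of all genes. Of 6 motifs searched on both strands, TGANTCA was found in 8 of the 47 windows (17.0%), against 7.81% of all windows. CACGTG (the E-box) was in 4 windows (8.51%), against 7.15%. An interferon-response motif, GAGGAAGT, TATAAA (the TATA box) and the NRF1 motif were each in 1 window (2.13%), against 3.44%, 3.20%, 13.62% and 0.97% of all windows. The Kat2b window held TGAGTCA at base 11 and GAGGAAGT at base 242, counted from its 5′ end. Both other windows of Kdm3a, not shown, held TGANTCA, unlike the window printed, and a window of Sirt1 held CACGTG. These are matches of letters and say nothing of binding. Kdm6b, Kdm2a and Kdm4b are named without a window.

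The demethylases were the class with the most lower members. Of 18, 14 were tested, 5 were lower (35.7%, against 13.8% of all genes), none was higher, and 12 of the 14 differences were below 0. On the TPM scale 1 demethylase was lower, as was 1 methyltransferase, where 6.85% of all genes were. Kdm6b (ENSMUSG00000018476; GRCm38, chromosome 11, 69398508 to 69413675, minus strand) removes methyl groups from the repressive mark on histone H3 lysine 27, and was the most abundant enzyme of the whole set. It stood at 63.3, 73.3 and 59.1 FPKM in WT and at 39.2, 34.7 and 25.4 FPKM in PGRN KO. Every PGRN KO library lay below every WT library, and the PGRN KO mean was 0.508 times the WT mean. The log2 difference was -0.97 ± 0.17 (SE, limma adjusted p = 0.00935). Its X-linked paralog Kdm6a (Utx), with the same substrate, was not past the threshold: 2.71, 2.61 and 2.29 FPKM in WT against 2.47, 2.07 and 1.17 FPKM in PGRN KO, with overlapping groups and a 95% interval of the log2 difference from -0.73 to 0.11.

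Kdm3a (ENSMUSG00000053470; chromosome 6, 71588972 to 71632990, minus strand), a demethylase of H3 lysine 9, stood at 18.4, 18.3 and 17.9 FPKM in WT and at 11.7, 11.6 and 7.8 FPKM in PGRN KO. The 3 WT values were close together and the PGRN KO values all lay well below them, with replicate 6 the lowest (log2 difference -0.78 ± 0.15, limma adjusted p = 0.0135). Kdm2a (ENSMUSG00000054611; chromosome 19, 4314419 to 4398285, minus strand), which binds unmethylated CpG islands and acts on H3 lysine 36, fell from 10.8, 11.2 and 9.86 FPKM to 6.81, 7.5 and 4.08 FPKM (-0.74 ± 0.19, adjusted p = 0.0343). Kdm5b (ENSMUSG00000042207; chromosome 1, 134560171 to 134635285, plus strand), which acts on H3 lysine 4, fell from 8.38, 7.94 and 7.59 FPKM to 5.20, 5.37 and 3.94 FPKM (-0.63 ± 0.12, adjusted p = 0.0123). Kdm4b (ENSMUSG00000024201; chromosome 17, 56326062 to 56402870, plus strand), which acts on H3 lysine 9, fell least: 8.66, 9.49 and 9.36 FPKM in WT against 6.78, 7.27 and 6.38 FPKM in PGRN KO (-0.38 ± 0.09, adjusted p = 0.0233). In each of these genes the genotypes did not overlap. The groups were also apart without PGRN KO replicate 6, where the log2 differences were -0.80 for Kdm6b, -0.60 for Kdm3a, -0.51 for Kdm2a, -0.51 for Kdm5b and -0.34 for Kdm4b, with adjusted p between 0.000781 and 0.00964. Over all alternative fits the adjusted p of these 5 genes ranged from 0.000213 to 0.143.

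The other 9 tested demethylases had log2 differences from -0.42 to 0.06, with adjusted p from 0.171 to 0.877. Kdm1a (Lsd1), the flavin-dependent demethylase of H3 lysine 4, was at 9.19, 9.73 and 9.56 FPKM in WT and at 9.70, 9.02 and 10.2 FPKM in PGRN KO. The groups overlapped, and the 95% interval of the log2 difference ran from -0.18 to 0.22. Kdm5c, an X-linked H3 lysine 4 demethylase, was at 15.3, 15.6 and 15.6 FPKM in WT, at 16.2 and 16.2 FPKM for PGRN KO replicates 4 and 5, and at 12.0 FPKM in replicate 6. The PGRN KO libraries thus lay on both sides of the WT values. Its Y-linked homolog Kdm5d was under the filter, at 0.271 to 0.605 FPKM, but detected in all 6 libraries with 71 to 162 fragments.

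**Figure D2:**
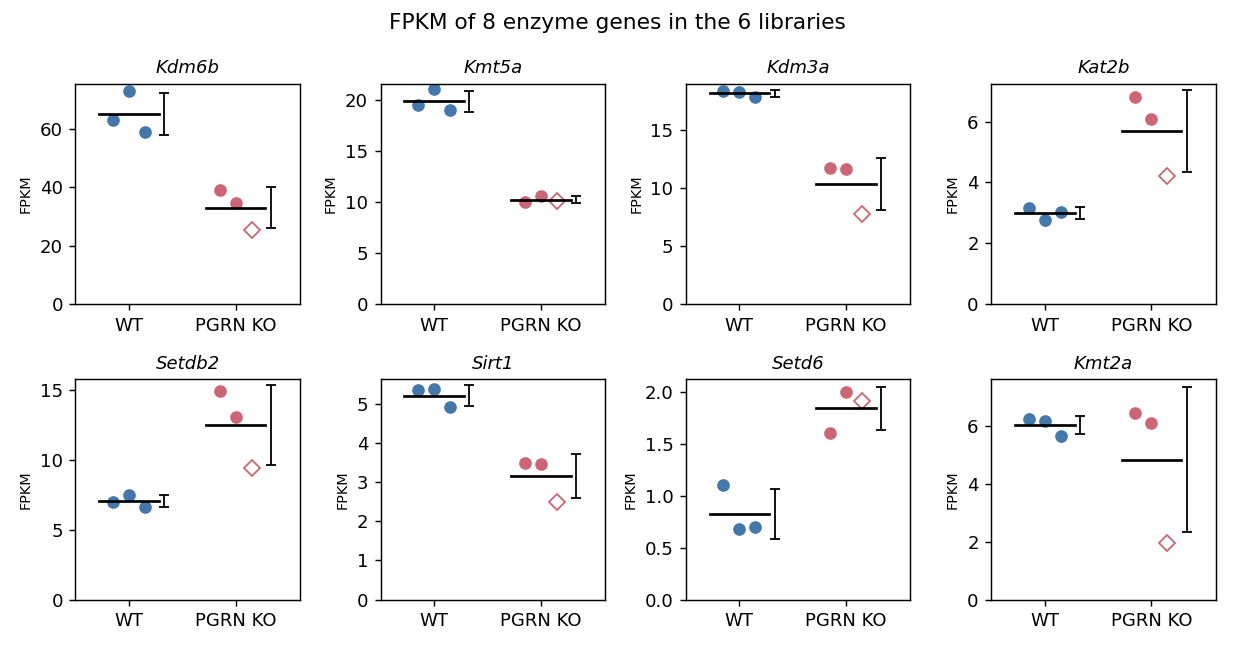
FPKM of 8 enzymes in each library, with WT replicates as blue points, PGRN KO replicates 4 and 5 as red points and replicate 6 as an open diamond; horizontal lines are group means, error bars are SD (n = 3), and each vertical axis starts at 0. The groups do not overlap in 7 of the panels, and in Kmt2a replicate 6 lies at 1.95 FPKM while the other libraries lie between 5.66 and 6.47 FPKM.

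The methyltransferases moved both ways. Of 18, 14 were tested, 2 were lower and 2 higher (14.3% each, against 13.8% and 10.4% of all genes). Kmt5a (Setd8 or PR-Set7; ENSMUSG00000049327; chromosome 5, 124439930 to 124462308, plus strand) places a single methyl group on histone H4 lysine 20. It was at 19.5, 21 and 19.0 FPKM in WT and at 9.94, 10.6 and 10.04 FPKM in PGRN KO. The PGRN KO libraries, replicate 6 included, lay within a narrow band at 0.514 times the WT mean, and the log2 difference of -0.90 ± 0.08 had the lowest adjusted p of the enzymes (limma, 0.00142). Kmt5b, which adds the further methyl groups to the same residue, was at 3.71 to 3.97 FPKM in WT against 2.53 to 3.28 FPKM in PGRN KO (-0.29, adjusted p = 0.0804), and it passed the threshold without PGRN KO replicate 6 (-0.21, adjusted p = 0.0463, with a range of 0.0208 to 0.546 over the alternative fits). Setd1a (ENSMUSG00000042308; chromosome 7, 127776670 to 127800122, plus strand), a catalytic subunit of the complexes that methylate H3 lysine 4 at promoters, was at 3.0, 3.12 and 3.07 FPKM in WT and at 2.07, 1.93 and 1.51 FPKM in PGRN KO (-0.52 ± 0.11, adjusted p = 0.0146). Of its exonic bases, 52.3% overlap the predicted gene Gm49388 on the same strand, which was listed at 0 in all 6 libraries, so its level depends on how shared fragments were assigned.

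Setdb2 (ENSMUSG00000071350; chromosome 14, 59402009 to 59440884, minus strand), a SET-domain protein linked to H3 lysine 9 methylation, was at 7.02, 7.52 and 6.64 FPKM in WT and at 15, 13.1 and 9.41 FPKM in PGRN KO. All PGRN KO libraries lay above all WT libraries, and replicate 6 was the nearest to them (0.72 ± 0.16, limma adjusted p = 0.0207). Its paralog Setdb1, which silences retroelements through H3 lysine 9, was at 1.65, 1.76 and 1.78 FPKM in WT and at 1.72, 1.85 and 1.1 FPKM in PGRN KO, with overlapping groups (-0.11, 95% interval -0.42 to 0.21). Setd6 (ENSMUSG00000031671; chromosome 8, 95715881 to 95719010, plus strand), which methylates the NF-kappaB subunit RelA, was at 1.1, 0.675 and 0.699 FPKM in WT and at 1.61, 2.00 and 1.92 FPKM in PGRN KO (0.64 ± 0.12, adjusted p = 0.0131). The groups were apart, but the values rest on 19 to 35 fragments per WT library and 53 to 72 per PGRN KO library. On this scale the difference of a gene so low is understated, and the ratio of the mean FPKM was 2.23. Its WT mean of 0.824 FPKM was under the filter and its PGRN KO mean of 1.84 FPKM above it, so that it was tested only because of the group where it was higher. In a fit of 22912 genes without the filter it had an adjusted p of 0.0482.

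The other 10 tested methyltransferases did not pass, with log2 differences from -0.66 to 0.13 and adjusted p from 0.0525 to 0.729. Setd2, which places the trimethyl mark on H3 lysine 36 in transcribed gene bodies, was at 8.44, 8.40 and 7.60 FPKM in WT and at 6.00, 5.67 and 3.16 FPKM in PGRN KO. The groups did not overlap, and the difference of -0.66 ± 0.20 had the adjusted p of 0.0525. Without PGRN KO replicate 6 it was -0.42 (adjusted p = 0.00541), and over the alternative fits the adjusted p ran from 0.00292 to 0.152. Kmt2a and Kmt2d, large H3 lysine 4 methyltransferases of the MLL group, showed the lone library plainly. Kmt2a was at 6.25, 6.19 and 5.66 FPKM in WT, 6.47 and 6.10 FPKM for PGRN KO replicates 4 and 5, and 1.95 FPKM in replicate 6. Kmt2d was at 3.99, 3.63 and 3.83 FPKM in WT, 4.41 and 4.48 FPKM in replicates 4 and 5, and 1.89 FPKM in replicate 6. The same split held in Kmt2e, with 7.34 to 8.46 FPKM in WT, 6.96 and 7.11 FPKM in replicates 4 and 5, and 2.30 FPKM in replicate 6. In each of these genes PGRN KO replicates 4 and 5 lay near the WT values and replicate 6 far below them, and none passed the test. Setd7, which methylates H3 lysine 4 and several transcription factors, was at 1.32, 1.35 and 1.53 FPKM in WT and at 1.71, 1.89 and 1.23 FPKM in PGRN KO (0.11, 95% interval -0.18 to 0.40).

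**Figure D3:**
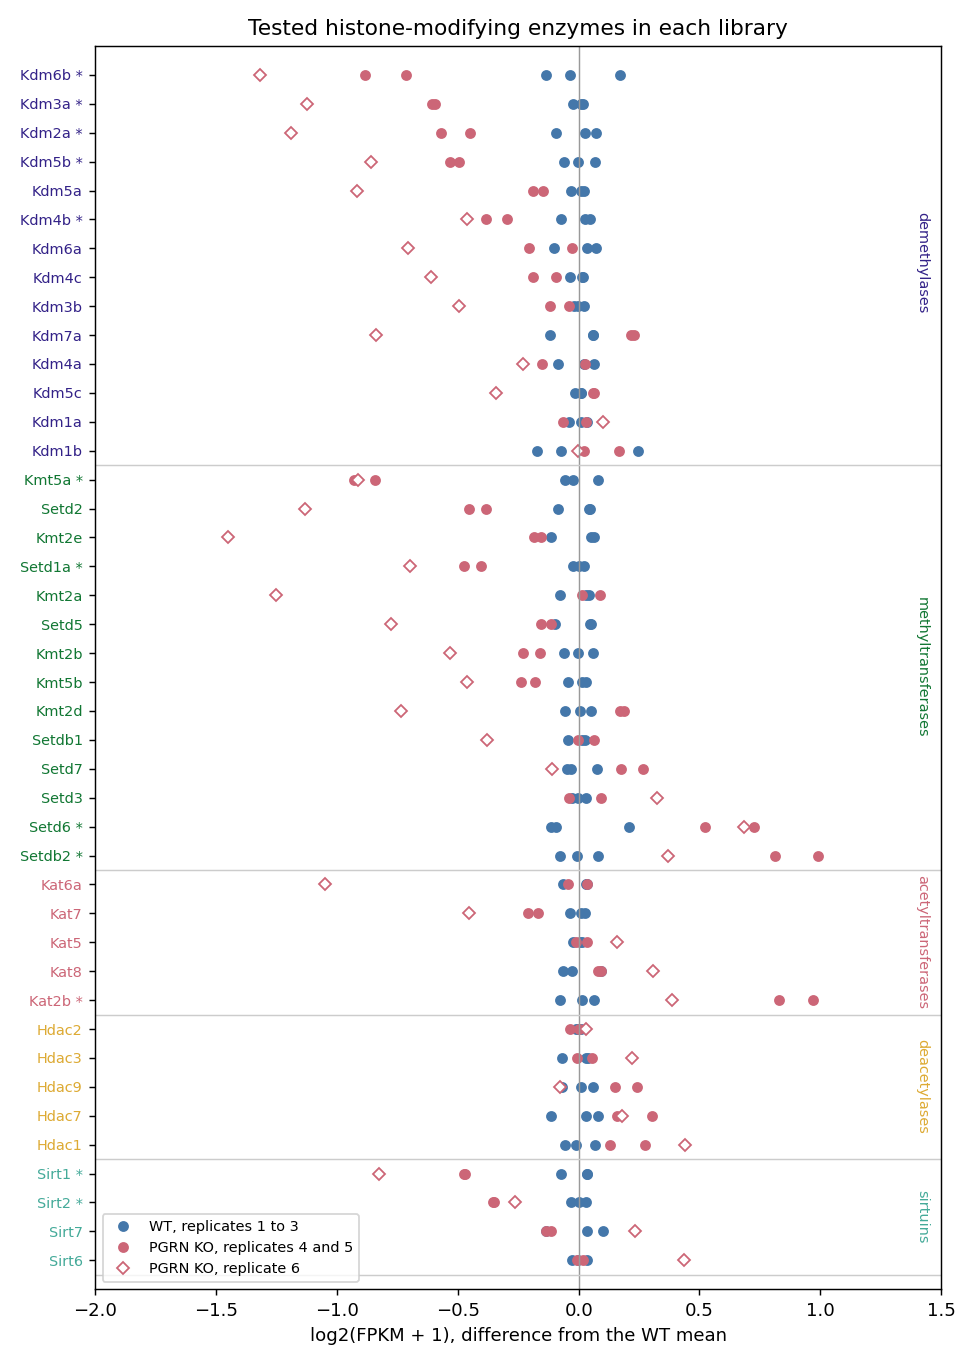
Each tested enzyme in each library as the difference from the WT mean on the log2(FPKM + 1) scale, with WT replicates as blue points, PGRN KO replicates 4 and 5 as red points and replicate 6 as an open diamond; enzymes are grouped by class and ordered by their difference, and asterisks mark the 12 past the threshold. The diamond is the lowest of the 6 values in 26 of the 42 enzymes, 12 of them demethylases and 10 methyltransferases.

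Among the acetyltransferases 8 genes were listed, 5 were tested and Kat2b alone passed, as higher (20%, against 10.4% of all genes). Kat2b (PCAF; ENSMUSG00000000708; chromosome 17, 53566861 to 53672720, plus strand), a catalytic subunit of the SAGA-type complexes that acetylates H3 lysine 9, was at 3.17, 2.78 and 3.03 FPKM in WT and at 6.81, 6.08 and 4.21 FPKM in PGRN KO. The groups were apart, with replicate 6 again nearest to WT, and the PGRN KO mean was 1.90 times the WT mean (0.73 ± 0.16, limma adjusted p = 0.0186). A pseudogene, Kat2b-ps, shares 14.6% of its sequence words of 31 bases and was listed at 0.0212 FPKM in 1 library and at 0 in 5. The close paralog Kat2a (Gcn5) was under the filter, at 0.429, 0.311 and 0.382 FPKM in WT and at 0.929, 0.820 and 0.532 FPKM in PGRN KO. These groups were apart too, but the difference did not pass in a fit without the filter (0.35, adjusted p = 0.145), and the gene lies 1.72 Mb from Grn on chromosome 11. Kat7, Sirt7 and Kdm6b lie on the same chromosome, 7.12, 18.2 and 33 Mb from Grn. Kat5 (Tip60), the catalytic subunit of the NuA4 complex, was at 10.8, 11.1 and 11.1 FPKM in WT and at 11.3, 10.9 and 12.4 FPKM in PGRN KO (0.06, 95% interval -0.14 to 0.26). Kat6a (Moz) was at 7.31, 7.34 and 6.79 FPKM in WT, at 7.35 and 6.90 FPKM for PGRN KO replicates 4 and 5, and at 2.93 FPKM in replicate 6. Kat7 (Hbo1) was at 9.40 to 9.86 FPKM in WT and at 8.49, 8.22 and 6.79 FPKM in PGRN KO. Its groups did not overlap, with an adjusted p of 0.091 over all libraries and 0.0360 without replicate 6, and a range of 0.0187 to 0.36 over the alternative fits.

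No classical deacetylase passed the threshold with all libraries, although 1 of the 5 tested had an unadjusted p under 0.05. That gene was Hdac1, a class I deacetylase of the NuRD, Sin3 and CoREST complexes and the most abundant of its class. It was at 14.7, 15.6 and 14.2 FPKM in WT and at 18.2, 16.3 and 20.5 FPKM in PGRN KO, so the groups were apart (0.28 ± 0.11, limma adjusted p = 0.0949). Of its sequence words of 31 bases, 40.0% are shared with the pseudogene Gm10093, which was listed at 2.36 to 3.97 FPKM. It passed in 5 of the 17 alternative fits, the TPM scale and quantile normalization among them, with adjusted p from 0.0215 to 0.25. Its partner Hdac2 hardly differed, at 3.51, 3.54 and 3.58 FPKM in WT against 3.43, 3.54 and 3.63 FPKM in PGRN KO, with a 95% interval of the log2 difference from -0.19 to 0.19. Hdac3, the catalytic subunit of the NCoR and SMRT corepressors, was at 10.6, 11.5 and 11.4 FPKM in WT and at 11.1, 11.6 and 13.2 FPKM in PGRN KO (0.09, 95% interval -0.13 to 0.31). The groups overlapped in both genes. The class IIa deacetylase Hdac7 was at 0.903, 0.721 and 0.968 FPKM in WT and at 1.08, 1.30 and 1.1 FPKM in PGRN KO, with separate groups (0.21, adjusted p = 0.167). Its WT values were all under the filter and its PGRN KO values all above it. Hdac7 was thus tested only because of the group where it was higher. Hdac9 was at 1.70, 1.61 and 1.47 FPKM in WT and at 2.07, 1.88 and 1.46 FPKM in PGRN KO (0.11, adjusted p = 0.522). Hdac4 was under the filter at 0.718 to 0.779 FPKM in WT against 0.399 to 0.598 FPKM in PGRN KO, and Hdac11 had 1 fragment in 1 library and none in the other 5.

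Of the 7 sirtuins 4 were tested and 2 were lower, where 13.8% of all genes were. On the TPM scale none of the 4 was lower, where 6.85% of all genes were. Sirt2 (ENSMUSG00000015149; chromosome 7, 28766735 to 28788661, plus strand), a largely cytoplasmic deacetylase of tubulin and of H4 lysine 16, was the most abundant at 33.2, 34.8 and 34.0 FPKM in WT against 26.5, 26.4 and 28.1 FPKM in PGRN KO. Both groups were tight and they did not overlap (-0.32 ± 0.08, limma adjusted p = 0.0281). Sirt1 (ENSMUSG00000020063; chromosome 10, 63319005 to 63381704, minus strand), a nuclear deacetylase of histones and of RelA, was at 5.36, 5.36 and 4.91 FPKM in WT and at 3.48, 3.47 and 2.50 FPKM in PGRN KO (-0.59 ± 0.12, adjusted p = 0.0158). The PGRN KO mean was 0.604 times the WT mean. Sirt6, a chromatin-bound deacetylase of H3, was at 2.70, 2.77 and 2.87 FPKM in WT, at 2.76 and 2.83 FPKM for PGRN KO replicates 4 and 5, and at 4.11 FPKM in replicate 6. Sirt7 was at 3.28 to 4.04 FPKM in WT against 3.27 to 4.52 FPKM in PGRN KO (-0.01, 95% interval -0.31 to 0.30). The mitochondrial Sirt3 was under the filter, at 0.190 to 0.380 FPKM in WT against 0.232 to 0.274 FPKM in PGRN KO.

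The 19 enzymes under the filter had mean levels of at most 0.959 FPKM. In 7 of them the groups were apart (Kat14, Kat2a, Hdac4, Hdac10, Kdm8, Setd4 and Sirt5). The groups were apart in 48.8% of all genes tested, and the share over all genes under the filter was not computed. In a fit without the filter none of the 19 passed, Kdm8 having the lowest adjusted p at 0.054 (limma). Some levels are uncertain because other genes share bases with the enzymes. Genes on the opposite strand overlap 24.6% of the exonic bases of Kdm3b, 22.4% of Hdac4, 17.9% of Hdac11, 12.7% of Sirt3 and 12.1% of Kat5. As no strand setting is given, their reads may not have been told apart. The share for Kat5 is of a GENCODE model of 3509 exonic bases, whereas its deposited length is 2008 bases. Setd3 shares 21.9%, Setdb1 10.1%, Kat8 9.06% and Setd6 6.2% of sequence words of 31 bases with other genes.

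These enzymes were long genes. The median deposited length of the 42 enzymes was 6775 bases, against 3856 bases over all genes tested. When the tested genes were split by length into 5 equal groups, 19 of the enzymes (45.2%) were in the longest group (6950 to 41324 bases), 15 were in the next, 4 and 4 in the following groups, and none in the shortest. The methyltransferases were the longest class (median 10020 bases), followed by the demethylases (7667.5 bases), sirtuins (5091.5 bases), acetyltransferases (4867 bases) and deacetylases (4474 bases). The median differences of the classes, in the same order, were -0.30 for methyltransferases, -0.31 for demethylases, -0.16 for sirtuins, 0.06 for acetyltransferases and 0.11 for deacetylases. Across the 42 enzymes the difference between genotypes fell with length (Spearman's rho = -0.521), more steeply than across all 8882 genes (rho = -0.213). All points share the same 6 libraries, and no p is given.

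PGRN KO replicate 6 carried much of that slope. All 19 enzymes of the longest group had their lowest value of the 6 libraries in that library, and so did 26 of the 42. Its difference from PGRN KO replicates 4 and 5 had a median of -0.59 over those 19 enzymes and of -0.32 over all genes of the same lengths. Without it rho was -0.228 across the enzymes and -0.02 across all genes. The median difference moved from -0.17 to -0.04 over all enzymes, from -0.31 to -0.13 over demethylases and from -0.30 to -0.05 over methyltransferases. With all libraries the 9 lower enzymes were all in the longest group or the next, and none of the 3 higher ones was in the longest. Without PGRN KO replicate 6 all 12 enzymes passed in the same direction. Kat7, Kmt5b and Setd2 passed as well, lower, which made 3 higher and 12 lower. In that fit 16.2% and 25.1% of all genes were called, 41.3% in all, against 24.2% with all libraries. The log2 differences without replicate 6 were -0.89 for Kmt5a, -0.44 for Setd1a, 0.90 for Setdb2, 0.62 for Setd6, 0.90 for Kat2b, -0.47 for Sirt1 and -0.35 for Sirt2.

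A correction of each library for gene length gave a like result for the calls. Across the 42 enzymes the corrected difference still fell with length (Spearman's rho = -0.291). All 12 enzymes passed in the same direction. Setd2 was then lower (-0.48, adjusted p = 0.0168), and Hdac1 (0.27, adjusted p = 0.0402) and Hdac9 (0.33, adjusted p = 0.0419, the lowest of a range up to 0.842 over the alternative fits) were higher, so that 5 enzymes were higher and 10 lower, with 14.9% and 16.8% of all genes called. Within the longest group 4 of 19 enzymes were lower and none higher with all libraries, where 15.7% and 4.61% of all genes of these lengths were called. In the next group 5 of 15 were lower and 1 higher, where 18.1% and 11.1% of all genes were called.

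**Figure D4:**
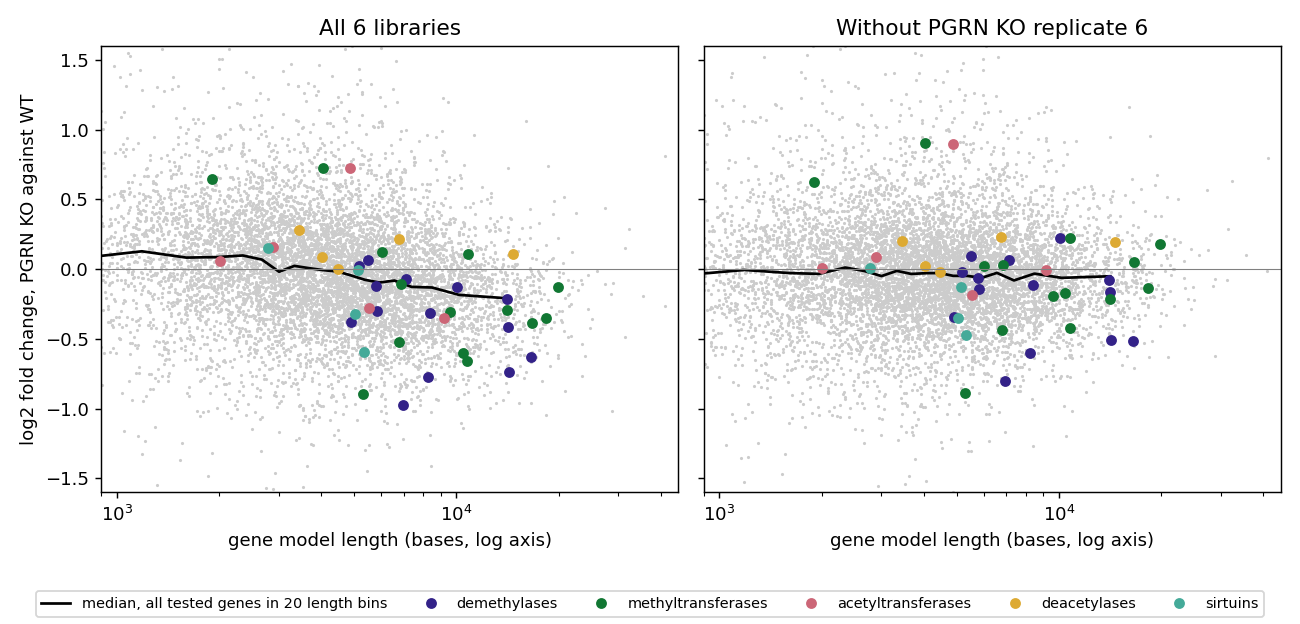
Difference between genotypes (PGRN KO minus WT, log2(FPKM + 1) scale) against deposited gene length in bases on a log axis, with all 6 libraries (left) and without PGRN KO replicate 6 (right); grey points are all genes tested, the black line is their median in 20 length bins, coloured points are the 42 enzymes by class, and genes beyond the axis limits are not drawn. The enzymes drift downward with length on the left (rho = -0.521) and less so on the right (rho = -0.228).

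Kdm6b and Kmt5a passed in all 17 alternative fits, with adjusted p of at most 0.0461 and 0.0151. With WT replicate 1, 2 or 3 left out, 3, 2 and 3 of the 12 passed, where 8.03%, 9.63% and 9.94% of all genes were called. Those that passed were Kdm6b and Kmt5a each time, with Setd6 when replicate 1 and Kdm5b when replicate 3 was left out. With PGRN KO replicate 4 or 5 left out, 8 and 9 passed, where 15.6% and 18% of all genes were called. Setdb2 and Sirt2 did not pass in either of these fits, Kdm2a and Kdm4b did not pass without replicate 4, and Kat2b did not pass without replicate 5. On the TPM scale 5 passed (Kat2b, Kdm6b, Kmt5a, Setd6 and Setdb2), and without the filter on low values 9 passed (all but Kat2b, Kdm2a and Setdb2), where 5.96% of 22912 genes were called. None of the 12 changed direction in any fit that tested it.

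Genes that work with these enzymes were examined as 5 lists from textbook knowledge of the complexes. The shares of all genes to read their counts against are 10.4% higher and 13.8% lower with all libraries, and 16.2% higher and 25.1% lower without PGRN KO replicate 6. Among 41 other histone-modifying enzymes, 29 were tested, 2 were higher and 4 lower, with a median difference of -0.04. Without PGRN KO replicate 6, 6 were higher and 4 lower, and the median was 0.02. Prdm2, a methyltransferase of H3 lysine 9, was at 13.2 to 14.1 FPKM in WT against 5.25 to 8.20 FPKM in PGRN KO (-0.88, limma adjusted p = 0.0103). Jmjd1c, a relative of Kdm3a, had a difference of -0.81 (adjusted p = 0.0441), and Jmjd6, a JmjC oxygenase, of -0.70 (adjusted p = 0.00597). Of 26 bromodomain proteins, which read acetyl marks, 20 were tested, 1 was higher and 2 lower (median -0.11): Sp100 rose by 0.58 (adjusted p = 0.0119), Bptf fell by 0.70 (adjusted p = 0.0484) and Brd2 fell by 0.32 (adjusted p = 0.0475). Without replicate 6, 2 were higher and 4 lower (median -0.01).

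Of 28 subunits of the repressor complexes that hold Hdac1, Hdac2, Hdac3 or Kdm1a, 26 were tested, 1 was higher and 2 lower (median -0.17). The NuRD subunits Chd4 (-0.44, limma adjusted p = 0.0283) and Mta2 (-0.27, adjusted p = 0.0477) were lower and Hmg20b was higher (0.46, adjusted p = 0.0184). Without PGRN KO replicate 6, 9 subunits of this list were lower and 1 higher (median -0.12). Of 12 subunits found in one or more of the complexes of Setd1a and the Kmt2 enzymes, 10 were tested: Wdr5 was lower (-0.40, adjusted p = 0.0243) and Dpy30 higher (0.37, adjusted p = 0.0342), with a median of -0.10. Without replicate 6, 2 of these were higher and 1 lower (median -0.03). Of 40 subunits of acetyltransferase complexes, 31 were tested, 7 were lower and 1 higher (median -0.14), and without replicate 6, 8 were lower and 1 higher (median -0.09). The largest differences there were in Kansl1 (-0.84, adjusted p = 0.0153), Brd1 (-0.63, adjusted p = 0.0142) and Msl2 (-0.61, adjusted p = 0.0150), which belong to complexes of Kat8, Kat6 or Kat7. Their enzymes Kat8 and Kat7 had differences of 0.16 (adjusted p = 0.293) and -0.28 (adjusted p = 0.091).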

How the data were processed

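RNA was sequenced from 3 WT and 3 PGRN KO macrophage samples of challenged cultures, grouped by the labels' genotype. The authors deposited 1 table of FPKM per gene and library, with gene coordinates and the gene length used for scaling. Per the submitters' processing notes the tools were CASAVA, HISAT2 2.0.5, featureCounts 1.5.0-p3 and DESeq2 1.20.0 on mm10 (GRCm38); the study's text names other versions and another counter. A strand setting for the counting was not given in the sources used here.

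FPKM multiplied by deposited length and scaled per library gave whole fragments for 100% of values (tolerance 0.001), hence the depths stated, which cover fragments assigned to genes. The study tested counts; because the deposited unit is FPKM, log2(FPKM + 1) was compared with limma 3.58.1 (R 4.3.3, mean-variance trend, all 8882 genes of mean FPKM at least 1, two-sided, Benjamini-Hochberg threshold 0.05). The pseudocount understates changes of low genes. The code was tested on simulated data. No count model was the main test; voom on the recovered fragments was an alternative (2267 genes called, against 2151), among 17 that also changed the pseudocount, filter, scaling, variance model, library weights, gene set, length correction (loess, span 0.5) or left out each library.

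The rule for named genes was every enzyme past the threshold, the most abundant of each class and a list of well-known members. Kat2a, Kat7, Kat8, Kat14, Kdm3b, Kdm8, Kmt2e, Kmt5b, Hdac10, Setd3, Setd4, Sirt5 and Sirt7 were named after their values were seen. Other lists name their 3 largest changes past the threshold. Members and lists were chosen with earlier results of these data known. Marker lists of 12 cell types and of sex-linked genes were summed; the eosinophil and mesothelial lists summed to at most 0.329 FPKM in any library. Xist had 1 fragment in 1 library and 3 Y-linked genes besides Kdm5d were detected in all. All 61 genes were found in GENCODE M21 (GRCm38), 59 with identical coordinates, which gave exon overlaps and shared words of 31 bases. Promoters are RefSeq windows of GRCm38.p6, found for 49 of the 61 enzymes. The left-out gene is not reported here. No 2 libraries agreed within sampling noise (lowest chi-square per degree of freedom 5.74). PGRN KO replicate 6 gave 88 and 91.8 against replicates 4 and 5, while replicate 4 against 5 gave 7.56. Replicates 4 and 5 gave 77.5 to 92.5 against the WT libraries, so replicate 6 lay about as far from its own group. Its quality weight was 0.0899, against 1.07 to 3.79 for the other libraries.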

Additional observations from a re-analysis of the deposited data

How the results depend on the processing

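The number of enzymes that passed as lower, 9 with all libraries, was 2 on the TPM scale and 13 with quality weights. It was 2 to 12 with each library left out in turn. With all libraries, on the TPM scale and with quality weights, 13.8%, 6.85% and 27.8% of all genes were lower. The number that passed as higher, 3 with all libraries, was 1 without the filter, 1 with a mean FPKM of at least 5, 5 with quality weights, 5 with the length correction, 7 with that correction and no PGRN KO replicate 6, and 0 to 3 with each library left out. These counts include enzymes that had not passed with all libraries. Of all genes, 10.4% were higher with all libraries, 2.63% without the filter, 10.9% at FPKM of at least 5 and 19.8% with quality weights. With the length correction 14.9% were higher, and 18.5% with that correction and no PGRN KO replicate 6. The lowest counts came without a WT library (replicate 1: 1 higher, 2 lower; replicate 2: 0 and 2; replicate 3: 0 and 3). There 8.03%, 9.63% and 9.94% of all genes were called. The median difference of acetyltransferases (0.06) became -0.0286 without the filter, -0.277 at FPKM of at least 5 and -0.01625 with the length correction. That of deacetylases (0.11) became 0.155 with a pseudocount of 0.1, 0.0688 without the filter, 0.185 at FPKM of at least 5, 0.146 on the TPM scale, 0.128 with quantile normalization, 0.170 with weights, 0.274 with the length correction, 0.228 with it and no replicate 6, 0.164 with voom, and 0.104 to 0.196 with each library left out. With the length correction and no replicate 6 the demethylases stood at -0.0915 and the methyltransferases at -0.0137, the latter at -0.366 to -0.0548 with each library left out. The sirtuins stood at 0.00431 without the filter and at -0.323 at FPKM of at least 5.

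Among the named enzymes only those that had not passed changed sign. On the TPM scale Hdac2 was at 0.0404, and with quantile normalization at 0.00891. With quality weights Kdm5c was at 0.0585, Kmt2a at 0.000662, Kmt2d at 0.129 and Setdb1 at 0.0304. With the length correction Hdac2 was at 0.0248, Kat5 at -0.01625, Kdm5c at 0.0288 and Kmt2d at 0.128. With the correction and no replicate 6, Hdac2 was at 0.0103, Kat6a at 0.0438, Kdm5c at 0.0980, Kmt2a at 0.106, Kmt2d at 0.230 (adjusted p = 0.0400) and Setdb1 at 0.0629. With each library left out the ranges were -0.0179 to 0.0141 for Hdac2, -0.0187 to 0.0641 for Kdm1a, -0.140 to 0.0628 for Kdm5c, -0.618 to 0.0512 for Kmt2a, -0.283 to 0.178 for Kmt2d and -0.192 to 0.0294 for Setdb1. Sirt7, named after its values were seen (-0.01), was at 0.0335 on the TPM scale, 0.00622 with quantile normalization and 0.0384 with the length correction, and at up to 0.0595 with a library left out. The cause of these shifts was not tested. Over the 28 tested enzymes that the naming rule chose and all fits, 380 values kept direction and side of the threshold, 45 lost a call, 15 gained a call and 24 changed sign.

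No paired analysis was possible because replicates 1 to 3 are all WT and replicates 4 to 6 all PGRN KO. With 3 libraries a group, a difference that did not pass is not shown to be absent, and genes under the filter rest on few fragments. Among the enzymes, those of the longest group lay furthest from replicates 4 and 5 in PGRN KO replicate 6. Over all genes the median of that difference was 0.382 in the shortest group and -0.322 in the longest, and the cause of its length trend was not tested.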
